A study of Arabidopsis thaliana with 26 samples.

Results

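The genes described here were more abundant in high light than in growth light at every sampled time and were back near the growth light level after recovery. The rule gave 76 of the 33602 gene IDs in the files. Members were selected on CPM, the counts of a gene scaled by the total of its library, averaged over the 2 libraries of a group. L is log2 of the ratio of high light to growth light at the same time, and R is log2 of the ratio of recovery to 72 h growth light, each with 1 CPM added to both sides. A gene was a member when L was at least 1 at all 6 times and R lay between -0.7 and 0.7. The members were thus chosen by L and R, which are given as descriptions without a test.

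Seedlings of Arabidopsis thaliana, ecotype Col-0, were raised at 22 °C without a dark period for 7 days at 60 µmol m-2 s-1, termed growth light. Some plates were then moved to 1200 µmol m-2 s-1 at a leaf temperature of 22 °C, termed high light. Sampling of high light plates and of plates left in growth light followed at 0.5, 6, 12, 24, 48 and 72 h. Recovery seedlings had 72 h of high light followed by 14 h of growth light. No growth light library of the age of the recovery seedlings was analysed here, so the 72 h growth light libraries served as their control. Each of the 13 groups has 2 libraries, each from the RNA of 25 pooled whole seedlings. Whether the members of such a pair were separate cultures is not stated in the labels. The p-values reflect only how far these samples differ, and that difference may be technical.

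Light beyond what photosynthesis can use leads to reactive oxygen and damage in the chloroplast, and plants answer with pigment-binding, antioxidant and quinone-making proteins. High light also engages abscisic acid, the hormone of water shortage. Abscisic acid bound to its receptors blocks the clade A protein phosphatases 2C, which frees SnRK2 kinases to activate bZIP factors, and these bind promoters at abscisic acid response elements (ABRE). The phosphatase genes are themselves targets of this pathway and form a negative feedback.

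Total counts ran from 13637677 to 29697279 per library. The libraries of a group correlated at 0.988 to 0.994 across genes on the log scale. The Rubisco subunit gene RBCS1A stood at 13318 to 19969 CPM. The seed genes CRA1 and OLEO1 and the flower genes AP3 and PI stayed at or below 1.26 CPM. Of 14 markers of leaf, epidermis, guard cell, phloem and root cells, 12 had a lower median over the high light than over the growth light libraries and 2, SUC2 and IRX3, a higher one. Among the 6 root markers the medians ran from 18.8 CPM in growth light to 8.20 CPM in high light for CASP1 and from 21.2 to 24.7 CPM for IRX3. The leaf marker CAB3 had medians of 3614 and 833 CPM, and the epidermis marker ATML1 of 125 and 69.7 CPM. Fewer cells of a type and less RNA per cell cannot be told apart in whole seedlings, and the part of such differences in the results below was not tested.

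Of the 76 members, 74 are annotated as protein coding and 2, AT3G17110 and AT3G56275, as transcribed pseudogenes. Their growth light levels were low, with a mean below 5 CPM for 47 members and below 1 CPM for 18. The added 1 CPM makes L an understatement for such genes. It shrinks R in the same way, so for low genes the limit on R is a lenient one. AT2G47780 had 1.37 and 1.21 CPM in recovery and 0.412 and 0.496 in 72 h growth light, with R of 0.66. AT3G17520 had 0.0653 and 0.121 CPM in recovery and 0.353 and 0.744 in 72 h growth light, with R of -0.50. An annotated gene overlaps 18 of the members, and in 16 of these it lies on the opposite strand. The strand setting of the counting is not given in the sources used here, so reads of these overlapping genes could not be separated. Those named below are AFP1, AT3G05640, DREB2A, LEA7, AT2G47780, P5CS1, AT1G67360, SPS1, PAP17, AT5G61820, AT1G19020 and AT1G43910.

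The median L of the members was 1.84 at 0.5 h and 1.94 at 6 h. It was 2.47 at 24 h and 1.81 at 72 h, while the median over all genes with a count lay between 0.00 and 0.05 at every time. L was largest at 24 h in 30 members, at 0.5 h in 20, at 48 h in 11, at 6 h in 10, at 72 h in 3 and at 12 h in 2. The genes were thus alike in sign and unlike in course. Only 17 members stayed within a range of 1 in L over the 6 times, and 20 spanned more than 2. L was higher at 72 h than at 0.5 h in 37 members and lower in 39, and by at least 1 in 14 members each way. It stayed at or above 2 throughout in 10 members and at or above 3 in 3, namely the ubiquitin ligase gene DIP2, the cold-regulated gene COR15A and the phosphatase gene HAI1.

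At the edges of the rule the smallest L was 1.01 in SPS1 and RHL41 at 0.5 h and 1.01 in IGMT2 at 48 h. Just outside stood KIN1 with 0.997 at 72 h, GATL2 with 0.983 at 0.5 h and MYB13 with 0.978 at 48 h. R was 0.67 in PAP1, 0.66 in AT2G47780 and 0.65 in ChlAKR just inside the limit. It was 0.70 in AT5G17760, 0.72 in NAC019 and 0.72 in RD20 just outside. Without a limit on R the list would hold 90 genes, and all the other 14 had a positive R.

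Both high light libraries lay above both growth light libraries at all 6 times in all 76 members. The share was 5.17% of all genes with a count, and the rule nearly fixes the outcome for the members. In recovery, 45 members lay within the range of the 12 growth light libraries. The share of all genes was not counted for this, and the limit on R favours it, so the count is a description only. Compared with 72 h growth light alone, both recovery libraries were above in 32 members, below in 21 and overlapping in 23. Such separation, above or below, occurred in 51.9% of all genes with a count and in a larger share of the members. Recovery in the sense of the rule is thus a limit on R and does not mean libraries equal to those of 72 h growth light. The median R was 0.13, with 45 positive and 31 negative values. The fall from 72 h of high light to recovery follows from the rule and had a median of -1.85 on the log2 scale, from -0.65 to -6.50 in ELIP1.

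**Figure D1:**
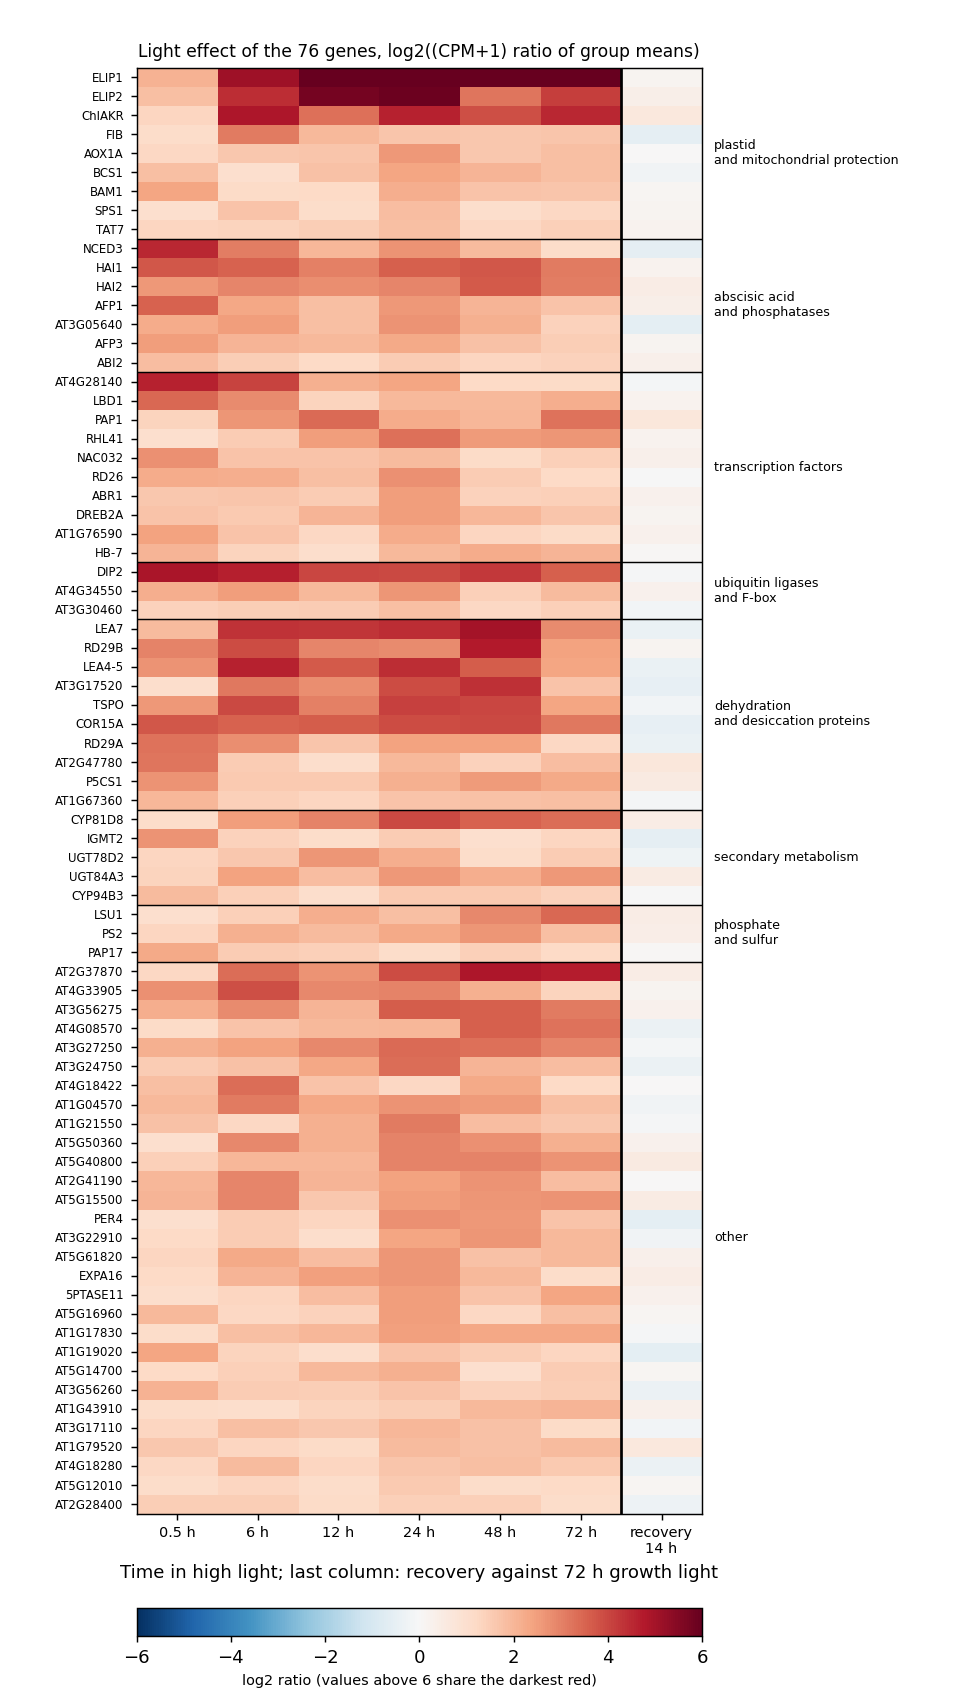
Each row is one of the 76 genes, ordered by role, and each of the first 6 columns gives L, the log2 ratio of high light to growth light at that time (group means of 2 libraries, 1 CPM added); the last column gives R. All cells of the first 6 columns are red because the rule asks for it; values above 6 share the darkest red, and the column of R is pale throughout.

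The change with time inside each light was not used by the rule, and it could be tested. The tests share libraries with the rule, and neighbouring tests share the 6 h or the 24 h libraries. Of the 76 members, all of which passed the low count filter, 71 would also pass on the growth light libraries alone. In high light from 0.5 to 6 h, 36 members rose and 22 fell, by edgeR's quasi-likelihood test at an adjusted p of 0.05 over 21449 genes. Among all tested genes 23.7% rose and 25.4% fell, against 47.4% and 28.9% of the members. The median log2 change was 0.29 in the members and -0.02 over all genes.

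Over the next interval of high light, 6 to 24 h, 45 members rose and 14 fell, with a median of 0.58 against -0.01 over all tested genes. The members' shares of 59.2% and 18.4% stood beside 19.8% and 20.6% of all genes. From 24 to 72 h the direction was the opposite one for most of them. In that interval 50 members fell and 5 rose, with a median of -0.80, when 23.1% of all genes fell and 20.2% rose. With upper-quartile scaling 5500 of all tested genes rose and 3978 fell in this interval, in place of 4327 and 4961, whereas 48 members fell and 5 rose.

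In growth light fewer members passed the test. Their levels were low there, with a mean below 5 CPM for 47 of the 76, which limits what can be called. From 0.5 to 6 h 8 rose and 5 fell, where 3.53% and 5.91% of all genes did. The interval from 6 to 24 h had 15 higher and 4 lower, beside 7.74% and 5.45% of all genes. From 24 to 72 h 5 rose and 13 fell, beside 8.32% and 9.39% of all genes. Each of these growth light counts moved by more than 1.5 times when 1 library of the comparison was left out, save the 4 that fell from 6 to 24 h. A peak at 24 h was counted from the libraries themselves. Both 24 h libraries lay above all 12 h and 48 h libraries in 37 members in high light and in 18 in growth light, compared with 11% and 8.73% of all genes with a count.

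In some groups most members moved together between the 2 libraries. In 24 h high light replicate 1 exceeded replicate 2 in 69 of 76 members, with a median log2 ratio of 0.27, when the median over 19138 genes of at least 1 CPM was 0.03. In 12 h high light it did so in 68 members, with a median of 0.22 against -0.03. At 48 h the order was the other way in most members, and replicate 1 was the higher one in 24. It was the higher one in 38 members at 0.5 h of high light, 32 at 6 h, 56 at 72 h and 36 in recovery. In the growth light groups it was higher in 26 to 47 members. Such counts were not made over all genes. Without replicate 1 of 24 h high light, 37 members rose from 6 to 24 h and 43 fell from 24 to 72 h. Without replicate 2 the counts were 46 and 51.

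**Figure D2:**
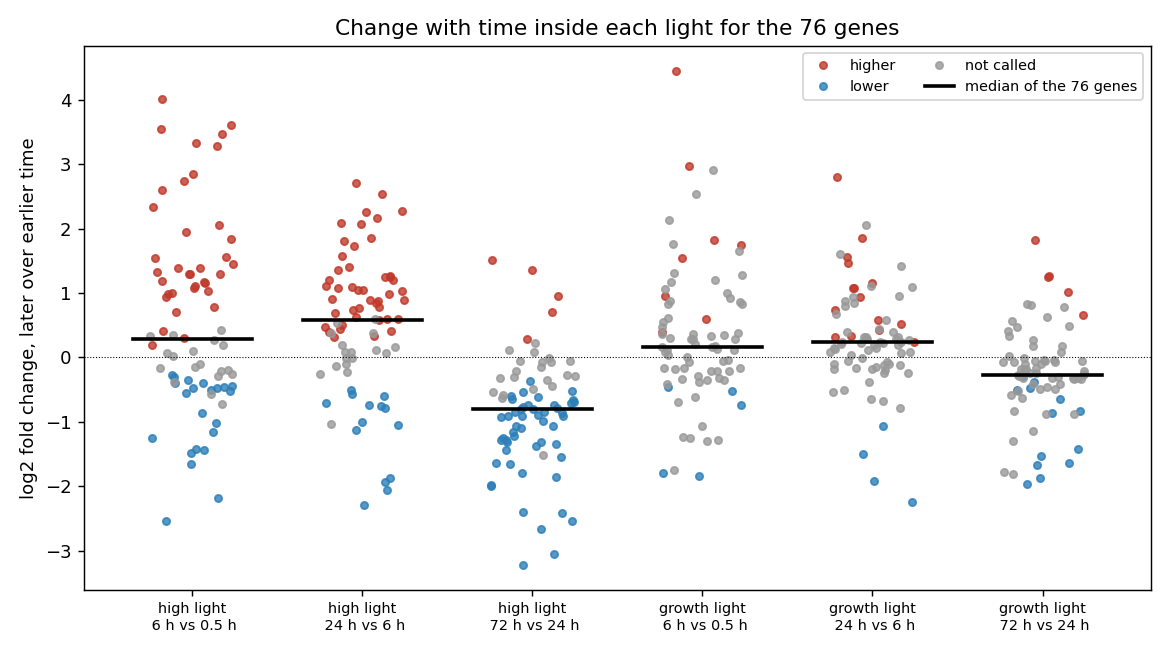
Points are the log2 fold changes of the 76 genes between 2 times inside one light, coloured by the call of edgeR's quasi-likelihood test (adjusted p of 0.05), and bars are medians. In high light the medians are 0.29, 0.58 and -0.80, and the last comparison has 50 genes lower and 5 higher.

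Promoter windows were read because sequence was not used by the rule. The window is the 250 bases before the annotated start of each gene in the RefSeq assembly TAIR10.1, read in the direction of the gene. The ABRE core was searched as ACGTG on both strands (CACGT on the other strand), and a G-box CACGTG was counted once. It was found in 36 of 76 members, or 47.4%, and in 24.1% of 21328 tested nuclear genes. At least 2 cores stood in 21.1% of the members and 5.59% of tested genes. In 500 bases the shares were 63.2% and 36.6%. The median GC content was 32.8% in the member windows and 31.2% in those of all tested genes.

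Other short motifs were counted on both strands in the same windows. The G-box CACGTG, which contains the ABRE core, was in 18.4% of members and 7.36% of tested genes. The dehydration response element core CCGAC was in 23.7% and 12.8%, and the heat shock element GAANNTTC in 18.4% and 9.42%. The evening element AAATATCT was in 11.8% and 4.91%. The W-box TTGAC was in 50% and 45.1% and the core CATGTG of drought NAC factors in 11.8% and 11.3%. These letters describe the windows and are not bound sites. The windows depend on the annotated starts, which were not checked against the start of transcription.

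**Figure D3:**
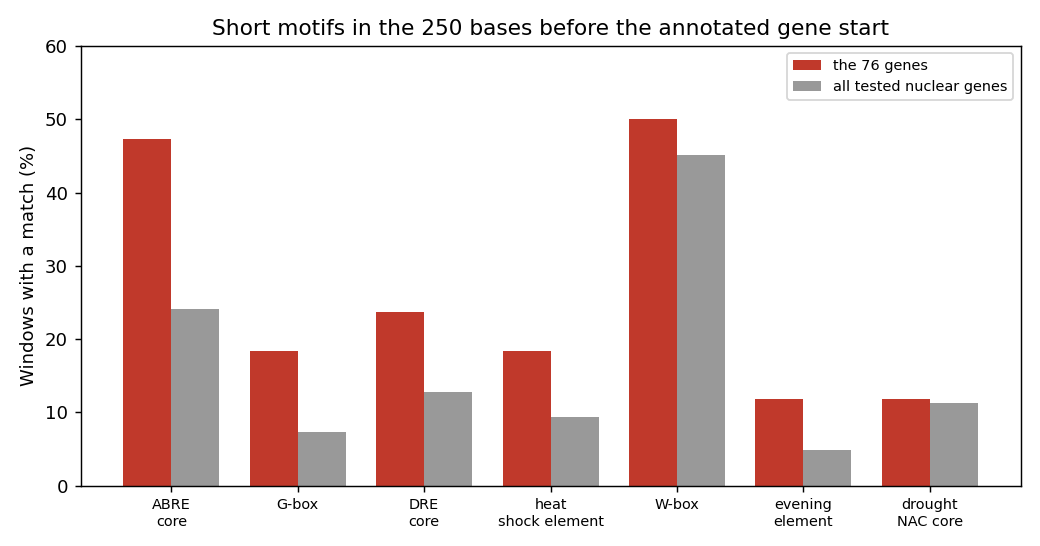
Bars give the percentage of windows of 250 bases before the annotated gene start that hold each motif on either strand, for the 76 genes and for 21328 tested nuclear genes. The ABRE core is in 47.4% against 24.1%, and the W-box and the NAC core differ least.

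By role the core was in 7 of 10 dehydration genes, 3 of 7 abscisic acid genes and 4 of 10 transcription factor genes. It was in 4 of 9 plastid and mitochondrial genes and all 3 ubiquitin ligase and F-box genes. Secondary metabolism had 2 of 5, phosphate and sulfur 1 of 3 and the remaining members 12 of 29. These counts are small, and differences between roles were not tested. The 36 members with a core and the 40 without were set side by side in high light without a test. From 0.5 to 6 h 19 with a core rose and 10 fell, and 17 without one rose and 12 fell, with median changes of 0.64 and 0.08. The medians were 0.50 with a core and 0.64 without from 6 to 24 h, and -0.82 and -0.79 from 24 to 72 h.

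The abscisic acid group had 7 members. They are genes of an enzyme of hormone synthesis, of clade A phosphatases and repressors that dampen its action, and AT3G05640. The last is annotated only as a phosphatase 2C and is not on the pathway list used below. NCED3 (AT3G14440, chr3:4831286-4834015) encodes the dioxygenase that cleaves carotenoid precursors of abscisic acid. In high light it stood at 126 and 140 CPM at 0.5 h, 46.7 and 41.5 at 6 h, 23.9 and 16.6 at 12 h, 34.6 and 26.5 at 24 h, 16.3 and 20.8 at 48 h and 10.6 and 8.74 at 72 h. In growth light its 12 libraries lay between 3.48 and 4.99 CPM, and recovery gave 1.96 and 2.73 CPM. The gene was highest at the first time and the recovery libraries were below every growth light library. NCED3 fell by 1.65 ± 0.14 (SE, n = 2 libraries per group) on the log2 scale from 0.5 to 6 h (edgeR adjusted p = 2.08e-09) and by 1.79 ± 0.18 from 24 to 72 h (edgeR adjusted p = 7.99e-08).

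The phosphatase gene HAI1 (AT5G59220, chr5:23894404-23896939) did not pass the test over the first 24 h. Its high light libraries read 38.4 and 40.0 CPM at 0.5 h, 45.0 and 38.4 at 6 h, 32.1 and 20.6 at 12 h, 65.8 and 44.6 at 24 h, 33.4 and 42.0 at 48 h and 29.8 and 22.0 at 72 h. Growth light ran from 1.60 to 3.70 CPM, and recovery gave 1.63 and 3.52 CPM, inside that range. Its log2 changes were 0.03 ± 0.19 from 0.5 to 6 h and 0.37 ± 0.19 from 6 to 24 h (edgeR adjusted p = 0.911 and 0.119). From 24 to 72 h it fell by 1.22 ± 0.20 (edgeR adjusted p = 4.95e-05).

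Its paralog HAI2 (AT1G07430, chr1:2280746-2282828) had 5.28 and 7.81 CPM at 0.5 h and 18.2 and 18.2 CPM at 48 h of high light, with growth light libraries between 0.2 and 1.05 CPM. It rose by 0.94 ± 0.16 from 0.5 to 6 h (edgeR adjusted p = 4.48e-05), and later tests gave -0.10 ± 0.15 and -0.15 ± 0.16. Over the 13 group means HAI2 and HAI1 were the members most like the median profile of all members, with Pearson r of 0.981 and 0.981 on log2(CPM + 1). AT3G17110 followed with 0.980, LEA4-5 with 0.978 and AT5G61820 with 0.975. The least alike were EXPA16 with 0.673, LSU1 with 0.692 and AT5G15500 with 0.738. These values describe 13 points that share the rule's own contrast.

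The windows of HAI1 and HAI2 are shown because both genes followed the common profile and only one window holds the ABRE core, which is in capitals. HAI2 has 4 cores and HAI1 none. In HAI1 no core was found in 500 bases before the annotated start, and the first one begins 79 bases after it, outside the window. A further match in HAI1 begins 122 bases after that start and is a G-box, counted once. The absence of a core from the HAI1 window thus depends on the annotated start, and a window placed from a later start could hold these cores. Where transcription of HAI1 begins was not tested. Sequences are from RefSeq, TAIR10.1, 5′ to 3′ in the direction of the gene.
HAI2 chr1:2282829-2283078 (minus strand): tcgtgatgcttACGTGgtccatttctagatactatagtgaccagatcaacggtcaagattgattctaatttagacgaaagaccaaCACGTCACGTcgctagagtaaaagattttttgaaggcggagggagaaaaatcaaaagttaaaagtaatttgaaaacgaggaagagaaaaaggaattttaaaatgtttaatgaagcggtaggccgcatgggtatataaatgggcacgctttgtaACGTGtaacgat
HAI1 chr5:23896940-23897189 (minus strand): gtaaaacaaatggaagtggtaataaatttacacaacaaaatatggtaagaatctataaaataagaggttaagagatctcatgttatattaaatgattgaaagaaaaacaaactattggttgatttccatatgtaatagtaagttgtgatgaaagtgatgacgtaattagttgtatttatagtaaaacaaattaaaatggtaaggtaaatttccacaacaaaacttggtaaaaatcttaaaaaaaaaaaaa

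Of the remaining genes of the group, ABI2 encodes another clade A phosphatase, and AT3G05640 is annotated as a phosphatase 2C. AFP1 and AFP3 encode binding proteins of ABI5, a bZIP factor of the hormone, and act as repressors. AFP1 stood at 52.4 and 53.9 CPM at 0.5 h and 20.4 and 18.8 at 72 h of high light, with 2.42 to 6.04 CPM over the growth light libraries. AFP1 fell from 0.5 to 6 h by 1.02 ± 0.16, rose by 0.44 ± 0.16 to 24 h and fell by 1.07 ± 0.17 to 72 h (edgeR adjusted p = 1.01e-05, 0.0296 and 3.08e-05). ABI2 had the flattest course of the group, between 19.9 and 35.2 CPM in high light and 7.99 and 11.8 CPM in growth light. None of its 3 high light tests passed, with log2 changes of -0.17 ± 0.12, -0.14 ± 0.12 and -0.27 ± 0.13.

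Gene lists for the wider pathways are given here and below by counts and medians, to be read beside all tested genes. In the 3 high light intervals 23.7, 19.8 and 20.2% of these rose and 25.4, 20.6 and 23.1% fell, with medians of -0.02, -0.01 and -0.0013. In the 3 growth light intervals 3.53, 7.74 and 8.32% of all tested genes rose and 5.91, 5.45 and 9.39% fell. The same shares apply to the role groups. Several list counts are near these shares, and no list was tested as a set. The abscisic acid pathway had a list of 32 genes, 6 of them members. In high light 10 rose and 16 fell from 0.5 to 6 h, with a median of -0.24. Between 6 and 24 h 13 rose and 5 fell, and from 24 to 72 h 5 rose and 14 fell, with medians of 0.05 and -0.28. The 5 that fell and the 5 that then rose are near the shares of all tested genes, 20.6% and 20.2%. Among genes of the list that are not members, the phosphatase gene ABI1 fell by 1.002 ± 0.07 from 0.5 to 6 h (edgeR adjusted p = 3.53e-11), and CYP707A1, which encodes an enzyme of hormone breakdown, rose by 0.72 ± 0.12 (edgeR adjusted p = 2.59e-05). ABI1 and CYP707A1 were chosen after their values were seen.

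The transcription factor group had 10 members, and 5 of them fell and 1 rose from 0.5 to 6 h of high light. Between 6 and 24 h 6 rose and 2 fell, and from 24 to 72 h 7 fell and none rose, with a median of -0.97. NAC032 and RD26 encode NAC factors of the stress and abscisic acid response. NAC032 had 88.6 and 95.8 CPM at 0.5 h, 43.5 and 42.4 at 6 h, 64.1 and 52.1 at 24 h and 38.3 and 31.9 at 72 h. Its growth light libraries lay between 9.59 and 15.5 CPM and recovery at 15.3 and 15.5. NAC032 fell by 1.16 ± 0.11, rose by 0.40 ± 0.11 and fell by 0.85 ± 0.11 over these intervals (edgeR adjusted p = 8.16e-09, 0.00485 and 3.92e-06).

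RD26 was highest at 24 h, with 60.9 and 45.1 CPM, and had 17.4 and 12.1 CPM at 72 h. It fell by 1.98 ± 0.17 between these times (edgeR adjusted p = 1.13e-08). DREB2A encodes the factor that binds the dehydration response element. Its 24 h libraries read 32.2 and 25.5 CPM, above its other high light libraries, which lay between 13.8 and 23.9 CPM. It rose by 0.90 ± 0.17 from 6 to 24 h and fell by 1.09 ± 0.18 to 72 h (edgeR adjusted p = 0.000196 and 4.43e-05).

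RHL41 encodes a zinc finger factor of light and oxidative stress responses, also known as ZAT12. High light libraries read 7.13 and 5.25 CPM at 0.5 h, 6.00 and 7.69 at 6 h, 17.2 and 13.2 at 12 h, 47.6 and 34.6 at 24 h, 18.2 and 16.1 at 48 h and 20.4 and 16.7 at 72 h. Growth light ran from 1.38 to 3.44 CPM. RHL41 rose by 2.54 ± 0.19 from 6 to 24 h (edgeR adjusted p = 8.5e-10), and both 24 h libraries were above all the others. The homeodomain gene HB-7 peaked later, at 106 and 112 CPM at 48 h, after 32.2 and 26.5 CPM at 12 h.

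The ERF family gene AT4G28140 (chr4:13974493-13975919) had the opposite course. Its high light libraries read 28.1 and 25.3 CPM at 0.5 h, 23.9 and 16.5 at 6 h, 4.21 and 5.15 at 12 h, 4.31 and 5.53 at 24 h, 1.91 and 1.49 at 48 h and 1.39 and 1.98 at 72 h. Its growth light libraries lay between 0.0499 and 0.353 CPM, and recovery gave 0.0653 and 0.182 CPM. It fell by 2.05 ± 0.17 from 6 to 24 h and by 1.65 ± 0.26 from 24 to 72 h (edgeR adjusted p = 4.7e-09 and 2.62e-05). PAP1, the MYB regulator of anthocyanin synthesis, rose by 2.74 ± 0.19 from 0.5 to 6 h of high light and by 1.55 ± 0.27 in growth light (edgeR adjusted p = 6.25e-11 and 0.000813). Its high light libraries were at 10.13 and 12.0 CPM at 0.5 h and 93.3 and 79.9 at 12 h.

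In the list of 17 stress transcription factors, 2 of them members, 2 rose and 11 fell from 0.5 to 6 h of high light, with a median of -1.11. The second interval had 15 higher and 2 lower, with a median of 0.87. From 24 to 72 h 1 rose and 14 fell, with a median of -0.85. The list of 4 stress ubiquitin ligases, which holds no member, had 4 lower in the first interval, none called in the second and 3 lower in the third, with medians of -1.33, 0.27 and -0.66.

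The dehydration group had 10 members, of which 7 rose and 2 fell from 0.5 to 6 h of high light, with a median of 1.80. From 6 to 24 h 1 rose and 2 fell, and from 24 to 72 h 6 fell and 1 rose, with a median of -1.58. In growth light 4 rose and none fell from 0.5 to 6 h, namely COR15A, RD29A, P5CS1 and AT1G67360, and the first pair of these also rose in high light.

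COR15A (AT2G42540, chr2:17710441-17712330) encodes a chloroplast protein that protects membranes in cold and drought. In high light it stood at 76.8 and 68.4 CPM at 0.5 h, 1072 and 1347 at 6 h, 868 and 702 at 12 h, 337 and 342 at 24 h, 480.3 and 389.8 at 48 h and 294 and 297 at 72 h. In growth light it stood at 6.15 and 3.05 CPM at 0.5 h, 94.3 and 114 at 6 h, 60.8 and 62.0 at 12 h, 14.1 and 29.6 at 24 h, 25.2 and 28.1 at 48 h and 33.1 and 31.1 at 72 h. Both lights had their highest libraries at 6 h, and L stayed between 3.16 and 3.98 throughout. COR15A rose by 4.01 ± 0.23 from 0.5 to 6 h in high light and by 4.45 ± 0.29 in growth light (edgeR adjusted p = 4.04e-12 and 8.54e-09). It fell from 6 to 24 h by 1.87 ± 0.21 in high light and by 2.24 ± 0.23 in growth light (edgeR adjusted p = 2.28e-07 and 1.85e-06). Recovery gave 21.6 and 23.4 CPM, below both 72 h growth light libraries.

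RD29A and RD29B encode hydrophilic proteins of the dehydration response and lie next to each other on chromosome 5 in the same orientation, 1185 bases apart. RD29A (chr5:21240717-21243644) had 383 and 372 CPM at 0.5 h, 957 and 973 at 6 h, 358 and 354 at 12 h, 276 and 243 at 24 h, 215 and 247 at 48 h and 86.5 and 93.2 at 72 h. In growth light it rose too, from 40.3 and 38 CPM at 0.5 h to 119 and 154 at 6 h. RD29A rose by 1.30 ± 0.15 in high light and by 1.75 ± 0.16 in growth light over that interval (edgeR adjusted p = 1.55e-07 and 8.22e-07).

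RD29B (chr5:21237021-21239531) differed more between libraries than RD29A. In high light it read 11.3 and 14.1 CPM at 0.5 h, 51.4 and 26.5 at 6 h, 38.4 and 5.26 at 12 h, 27.4 and 11.4 at 24 h, 32.1 and 49.7 at 48 h and 9.83 and 5.19 at 72 h. Growth light ran from 0.412 to 2.87 CPM. L of RD29B was 2.98, 3.90, 2.95, 2.82, 4.74 and 2.43 over the 6 times, against 3.24, 2.81, 1.68, 2.41, 2.40 and 1.23 for RD29A.

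The windows of this pair are shown because the neighbours differ in the core, in capitals as above. RD29B has 4 cores in 250 bases and RD29A none. RD29A has none in 500 bases either, and its first core begins 70 bases after the annotated start. A window placed from a later start could hold that core. Whether transcription begins at the annotated start was not tested. The CCGAC core of the dehydration response element, in lower case here, occurs 3 times in the RD29A window and 1 time in that of RD29B.
RD29B chr5:21236771-21237020 (plus strand): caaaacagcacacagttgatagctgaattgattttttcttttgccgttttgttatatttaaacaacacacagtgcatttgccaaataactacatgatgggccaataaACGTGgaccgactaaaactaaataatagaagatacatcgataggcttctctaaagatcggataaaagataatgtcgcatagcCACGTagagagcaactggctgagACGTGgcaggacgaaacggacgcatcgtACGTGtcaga
RD29A chr5:21240467-21240716 (plus strand): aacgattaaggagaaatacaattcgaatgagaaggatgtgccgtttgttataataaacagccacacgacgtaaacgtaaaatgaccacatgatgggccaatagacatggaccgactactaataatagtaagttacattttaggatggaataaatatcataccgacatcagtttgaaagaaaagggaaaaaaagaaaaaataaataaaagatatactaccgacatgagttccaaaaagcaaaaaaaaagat

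The late embryogenesis abundant (LEA) proteins are disordered protectants that plants make in drying tissue. LEA4-5 (chr5:2089445-2090430) had 5.80 and 9.25 CPM at 0.5 h, 42.7 and 37.0 at 6 h, 23.8 and 15.9 at 12 h, 57.3 and 36.3 at 24 h, 22.1 and 29.2 at 48 h and 10.7 and 8.57 at 72 h. Growth light ran from 0.163 to 1.26 CPM, and recovery gave 0.261 and 0.910 CPM. LEA4-5 rose by 2.34 ± 0.23 from 0.5 to 6 h and fell by 2.41 ± 0.24 from 24 to 72 h (edgeR adjusted p = 2.06e-08 and 5.98e-08). LEA7 rose by 3.60 ± 0.41 in the first interval and fell by 1.99 ± 0.34 in the last, and AT3G17520 rose by 3.28 ± 0.54 and fell by 2.67 ± 0.49 (edgeR adjusted p = 1.62e-07, 6.81e-05, 2.95e-05 and 0.000168).

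In this group the libraries of a pair differed at several times. Replicate 1 and replicate 2 at 12 h of high light held 62.2 and 27.7 CPM of LEA7 and 17.5 and 3.93 CPM of AT3G17520. TSPO, a membrane protein gene of the abscisic acid and salt response, read 17.1 and 3.71 CPM in the 12 h libraries. All 10 members of the group were higher in replicate 1 at 12 h, with a median log2 ratio of 0.43. At 24 h 9 of 10 were higher in replicate 1, with a median of 0.44. At 48 h 8 of 10 were higher in replicate 2, with a median of -0.38. The cause was not tested.

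P5CS1 makes the rate-limiting enzyme of proline synthesis and had the reverse course of the LEA genes. Under high light it had 443 and 472 CPM at 0.5 h, 337 and 326 at 6 h, 212 and 204 at 12 h, 420.4 and 337 at 24 h, 645 and 770.0 at 48 h and 683 and 661 at 72 h. Its growth light libraries lay between 54.8 and 144 CPM, and both recovery libraries, at 203 and 209 CPM, were above all of them. P5CS1 fell by 0.52 ± 0.16 from 0.5 to 6 h and rose by 0.71 ± 0.16 from 24 to 72 h (edgeR adjusted p = 0.0111 and 0.00134). AT2G47780, annotated as a rubber elongation factor protein, lies 532 bases from TSPO on chromosome 2. It fell by 1.44 ± 0.19 from 0.5 to 6 h (edgeR adjusted p = 1.18e-06), whereas TSPO rose by 2.06 ± 0.47 (edgeR adjusted p = 0.000953).

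In the list of 18 dehydration and cold genes, 5 of them members, 11 rose and 5 fell from 0.5 to 6 h of high light, with a median of 0.79. Then 4 rose and 10 fell from 6 to 24 h, and from 24 to 72 h 1 rose and 12 fell, with medians of -0.88 and -1.19. In growth light 8 rose and none fell in the first interval, and none rose and 7 fell in the second. Of 10 osmolyte genes, with P5CS1 the one member, 1 rose and 6 fell, then 3 rose and 2 fell, then 3 rose and 5 fell over the 3 high light intervals, with medians of -0.75, -0.0038 and -0.19. The 2 that fell from 6 to 24 h are near the share of all tested genes, 20.6%. With 10 genes, the 3 that rose in each of the later intervals differ little from the shares of 19.8 and 20.2%.

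The plastid and mitochondrial group had 9 members. From 0.5 to 6 h 5 rose and 3 fell, from 6 to 24 h 8 rose and 1 fell, and from 24 to 72 h 8 fell and none rose. ELIP1 and ELIP2 encode early light-induced proteins, relatives of the light-harvesting antenna that bind pigments under excess light. ELIP1 (AT3G22840, chr3:8084405-8085669) had the highest mean CPM of the members in high light. It stood at 121 and 144 CPM at 0.5 h, 1003 and 984 at 6 h, 1311 and 1205 at 12 h, 4695 and 4431 at 24 h, 1773 and 2142 at 48 h and 2845 and 2698 at 72 h. Growth light ran from 13.1 to 38.2 CPM, and recovery, at 32.2 and 27.2 CPM, fell inside that range. ELIP1 rose by 2.85 ± 0.12 and 2.17 ± 0.11 over the first 2 intervals and fell by 0.84 ± 0.11 in the last (edgeR adjusted p = 4.11e-14, 6.54e-12 and 2.84e-06).

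ELIP2 also peaked at 24 h. It had 69.5 and 85.6 CPM at 0.5 h, 306 and 319 at 6 h, 324 and 336 at 12 h, 1477 and 1243 at 24 h, 65.9 and 109.7 at 48 h and 169 and 149 at 72 h. It fell by 3.22 ± 0.16 from 24 to 72 h (edgeR adjusted p = 7.5e-12). Its growth light libraries were also high at 24 h, with 22.6 and 22.0 CPM, beside 5.69 and 4.55 at 12 h and 8.72 and 8.39 at 48 h, and stood at 21.3 and 21.5 at 0.5 h. In growth light ELIP2 fell by 1.53 ± 0.21 from 24 to 72 h (edgeR adjusted p = 5.16e-05). ELIP1 and ELIP2 are close in sequence, and the way shared reads were assigned is not given in the sources used here.

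The window of ELIP1 is shown because its only core within 250 bases, in capitals, is part of a G-box. No core was found in the ELIP2 window. Within 500 bases ELIP1 has further cores, which begin at -494 and -444 from the annotated start, and ELIP2 has one at -443.
ELIP1 chr3:8085670-8085919 (minus strand): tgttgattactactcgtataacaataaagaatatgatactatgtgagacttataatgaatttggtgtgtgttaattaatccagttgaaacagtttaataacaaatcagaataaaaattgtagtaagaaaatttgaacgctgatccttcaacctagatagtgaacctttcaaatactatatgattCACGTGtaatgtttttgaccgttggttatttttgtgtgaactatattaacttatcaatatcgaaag

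FIB encodes a fibrillin, a structural protein of the plastid lipid droplets called plastoglobules. Its high light libraries read 306 and 284 CPM at 0.5 h, 972 and 1215 at 6 h, 852 and 767 at 12 h, 554 and 528 at 24 h, 449.6 and 426 at 48 h and 329.97 and 322 at 72 h. Growth light lay between 94.2 and 208 CPM. FIB peaked at 6 h and rose by 1.84 ± 0.13 before it fell by 1.05 ± 0.12 to 24 h and 0.85 ± 0.12 to 72 h (edgeR adjusted p = 7.38e-11, 5.62e-07 and 1.01e-05). The recovery libraries, at 70.7 and 69.0 CPM, were below all growth light libraries.

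ChlAKR encodes a chloroplast reductase that removes reactive aldehydes. It had 6.91 and 5.13 CPM at 0.5 h, 74.3 and 72.2 at 6 h, 143 and 108 at 24 h and 56.5 and 53.2 at 72 h, with growth light between 1.35 and 7.26 CPM. It rose by 3.56 ± 0.21 from 0.5 to 6 h (edgeR adjusted p = 5.73e-12). BAM1, a plastid beta-amylase that degrades starch under stress, fell and rose again. It had 409 and 439 CPM at 0.5 h, 162 and 166 at 6 h, 429.6 and 373 at 24 h and 255 and 256 at 72 h, and growth light lay between 63.5 and 96.7 CPM. BAM1 fell by 1.42 ± 0.10 from 0.5 to 6 h and rose by 1.26 ± 0.10 to 24 h (edgeR adjusted p = 7.61e-11 and 1.28e-09).

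AOX1A encodes the alternative oxidase, which relieves the mitochondrial electron chain. It stood at 261 and 206 CPM at 24 h, above its other high light libraries of 70.4 to 135 CPM, and growth light lay between 28.0 and 42.8 CPM. AOX1A rose by 1.27 ± 0.11 from 6 to 24 h and fell by 0.98 ± 0.11 to 72 h (edgeR adjusted p = 1.06e-08 and 5.22e-07). SPS1, which makes the side chain of prenylquinones, and TAT7, an aminotransferase that feeds tocopherol synthesis, moved less. SPS1 stayed between 101 and 209 CPM in high light and 42.5 and 59.2 CPM in growth light, and TAT7 between 56.9 and 137 CPM and 18.9 and 40.1 CPM.

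Of 15 genes on the light stress and photoprotection list, with ELIP1 and ELIP2 the members, 8 rose and 3 fell from 0.5 to 6 h of high light. From 6 to 24 h 7 rose and 1 fell, and from 24 to 72 h 4 rose and 5 fell, with medians of 0.31, 0.17 and -0.13. In growth light none rose and 7 fell in the first interval. Of 8 sugar and starch genes, with BAM1 the one member, 4 rose and 2 fell, then 3 rose and 2 fell, then 2 rose and 3 fell, with medians of 0.60, 0.17 and -0.09. The 2 that fell first and the 2 that rose last are near the shares of all tested genes, 25.4% and 20.2%.

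**Figure D4:**
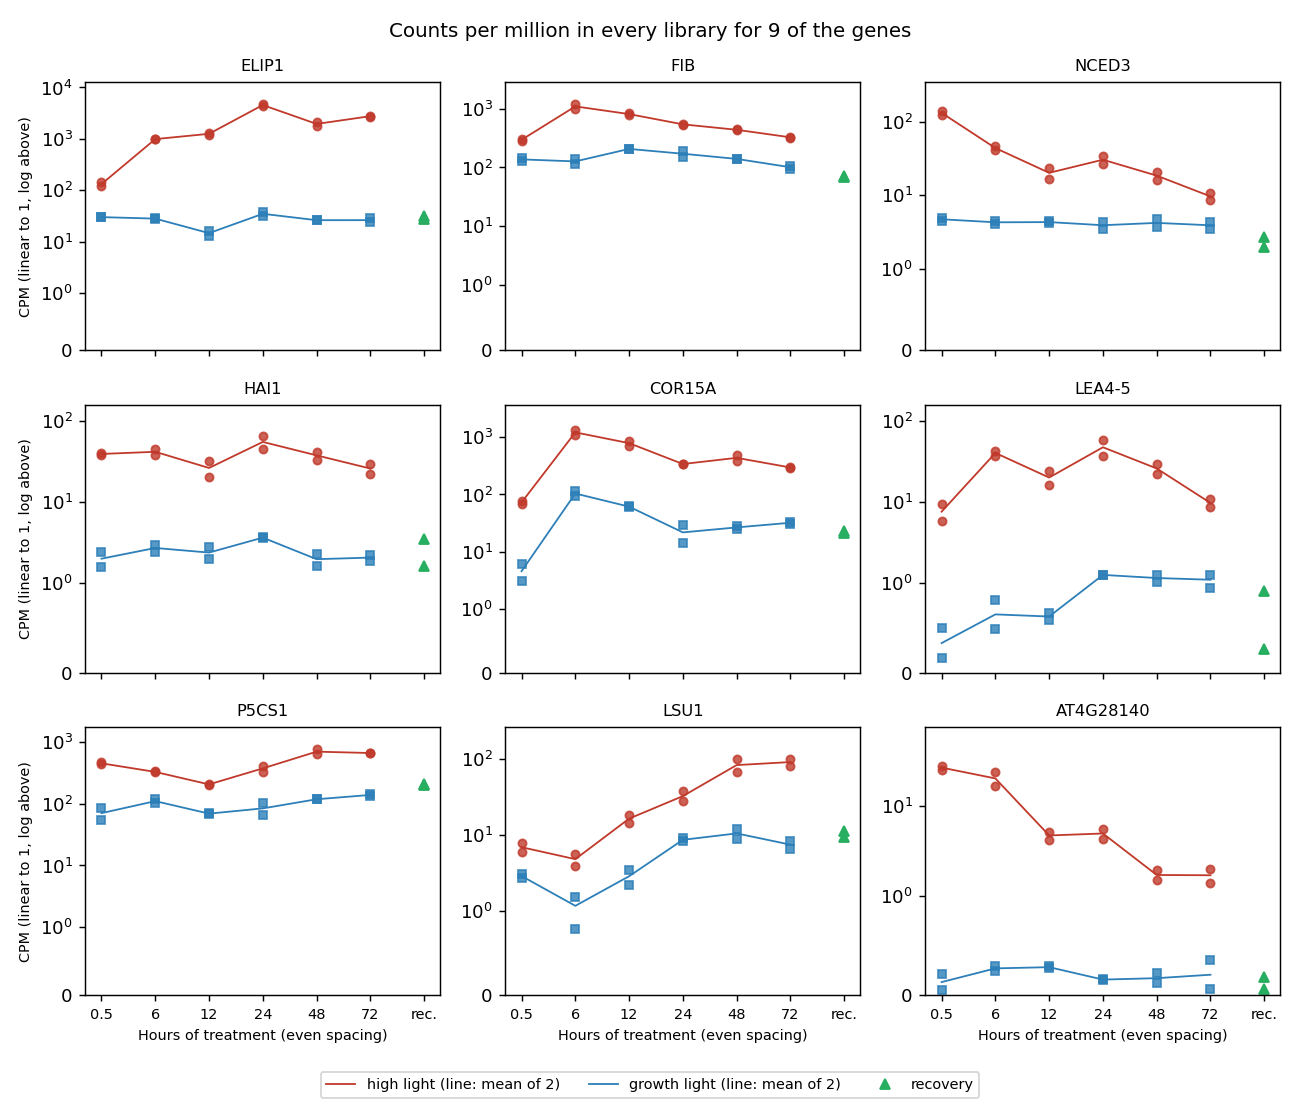
Each panel gives one gene's CPM in every library against time (even spacing; the axis is linear up to 1 CPM and logarithmic above), with lines through the means of 2 libraries. High light lies above growth light in each panel by the rule. ELIP1 peaks at 24 h and COR15A at 6 h, NCED3 and AT4G28140 are highest at 0.5 h, and LSU1 is highest at 48 and 72 h.

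Among genes of secondary metabolism, UGT78D2 encodes a flavonoid glucosyltransferase and had 541 and 576 CPM at 24 h, above its other high light libraries of 189 to 383 CPM. It rose by 1.08 ± 0.10 from 6 to 24 h and fell by 1.54 ± 0.10 to 72 h (edgeR adjusted p = 1.14e-08 and 2.04e-10). In growth light it rose by 0.59 ± 0.10 and fell by 0.86 ± 0.10 over the same intervals (edgeR adjusted p = 0.000498 and 1.15e-05). CYP81D8, a cytochrome P450 gene, rose by 2.25 ± 0.15 from 6 to 24 h (edgeR adjusted p = 9.45e-11), from 12.9 and 11.9 CPM to 66.7 and 54.4 CPM. IGMT2, a methyltransferase gene of indole glucosinolates, fell by 2.18 ± 0.23 from 0.5 to 6 h (edgeR adjusted p = 5.56e-08), from 14.1 and 13.8 CPM to 2.08 and 4.25 CPM.

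On the list of 10 flavonoid genes, with PAP1 the one member, 9 rose and 1 fell from 0.5 to 6 h of high light. From 6 to 24 h 8 rose and none fell, and from 24 to 72 h none rose and 9 fell, with medians of 1.67, 1.30 and -0.9998. CYP94B3 encodes an enzyme that oxidises the active jasmonate hormone. It fell by 1.48 ± 0.40 from 0.5 to 6 h (edgeR adjusted p = 0.00358). On the list of 8 jasmonate genes, which holds no member, 2 rose and 5 fell, then 8 rose, then 7 fell over the 3 intervals of high light, with medians of -0.67, 1.33 and -1.35.

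LSU1, a gene named for its response to low sulfur, differed from most members by its late maximum. In high light it stood at 7.81 and 5.93 CPM at 0.5 h, 3.89 and 5.67 at 6 h, 18.4 and 14.2 at 12 h, 37.0 and 27.4 at 24 h, 98.0 and 66.7 at 48 h and 99.8 and 80.8 at 72 h. In growth light it had 1.54 and 0.788 CPM at 6 h and 8.94 and 8.22 at 24 h. LSU1 rose by 2.71 ± 0.24 in high light and by 2.80 ± 0.37 in growth light from 6 to 24 h (edgeR adjusted p = 7.5e-09 and 4.08e-05). From 24 to 72 h it rose by 1.36 ± 0.19 in high light (edgeR adjusted p = 6.48e-06). PAP17, a purple acid phosphatase gene of the phosphate starvation response, had its highest mean at 0.5 h, with 123 and 112 CPM, which overlapped the 48 h libraries of 110.3 and 114 CPM.

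DIP2, annotated as an E3 ubiquitin-protein ligase, had the largest smallest L of the members, 3.57 at 72 h. It stood at 41.0 and 32.6 CPM at 0.5 h, 28.8 and 37.6 at 6 h, 21.4 and 16.4 at 12 h, 23.4 and 18.3 at 24 h, 25.0 and 26.1 at 48 h and 13.6 and 15.3 at 72 h. Its growth light libraries lay between 0.125 and 0.546 CPM, and recovery gave 0.261 and 0.182 CPM. The gene was below 1 CPM in every library outside high light. DIP2 fell by 0.71 ± 0.15 from 6 to 24 h and by 0.65 ± 0.17 to 72 h (edgeR adjusted p = 0.000664 and 0.00365).

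The remaining 29 members have mixed or unknown functions. From 0.5 to 6 h 17 rose and 5 fell, from 6 to 24 h 21 rose and 6 fell, and from 24 to 72 h 19 fell and 3 rose. AT5G61820, annotated as a stress up-regulated Nod 19 protein, had 786 and 663 CPM at 24 h of high light and 76.04 to 126 CPM in growth light. The gene of the wall-loosening expansin EXPA16 was highest at 6 h in both lights, like COR15A. It had 5.19 and 5.09 CPM at 0.5 h and 57.5 and 61.0 at 6 h of high light, and 2.18 and 1.20 and then 15.2 and 11.9 CPM in growth light. EXPA16 rose by 3.47 ± 0.19 in high light and by 2.97 ± 0.27 in growth light (edgeR adjusted p = 2.26e-12 and 8.22e-07).

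The ankyrin repeat gene AT5G15500 rose late in both lights. It had 13.6 and 12.4 CPM at 24 h, 47.2 and 48.1 at 48 h and 41.9 and 38.3 at 72 h of high light, and 0.931 and 1.99, 5.88 and 7.54, and 5.94 and 4.96 CPM in growth light. From 24 to 72 h it rose by 1.51 ± 0.23 and 1.83 ± 0.40 (edgeR adjusted p = 2.34e-05 and 0.00334). AT1G19020 was highest at 0.5 h, with 29.8 and 23.6 CPM, and fell by 2.54 ± 0.22 to 6 h of high light and by 1.83 ± 0.36 in growth light (edgeR adjusted p = 2.18e-09 and 0.00191). The peroxidase gene PER4 rose by 2.28 ± 0.28 from 6 to 24 h of high light (edgeR adjusted p = 1.16e-06), to 32.2 and 14.8 CPM. AT2G37870, annotated as a lipid-transfer protein, rose by 3.34 ± 0.23 from 0.5 to 6 h (edgeR adjusted p = 7.88e-11) and reached 70.0 and 70.9 CPM at 48 h.

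A pair of genes with a 6 h maximum fell later. AT4G18422, of unknown function, had 9.70 and 10.7 CPM at 6 h and 2.22 and 2.05 CPM at 24 h of high light, and fell by 2.29 ± 0.23 between them (edgeR adjusted p = 5.58e-08). AT4G33905, annotated as a peroxisomal membrane protein, had 18.5 and 21.1 CPM at 6 h, 15.6 and 11.2 at 24 h and 2.71 and 2.33 at 72 h. It fell by 2.53 ± 0.26 from 24 to 72 h (edgeR adjusted p = 8.72e-08). Growth light libraries stayed at or below 0.324 CPM for AT4G18422 and 1.09 CPM for AT4G33905.

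Other members were highest at 24 h or later. AT3G27250, of unknown function, had 4.25 and 6.13 CPM at 0.5 h, 26.1 and 25.6 at 24 h and 18.5 and 18.4 at 72 h, with growth light between 0.0998 and 2.18 CPM. AT4G08570, annotated to the heavy metal transport/detoxification family, had 22.2 and 18.6 CPM at 24 h and 46.9 and 39.4 at 72 h. It rose by 0.96 ± 0.17 between these times (edgeR adjusted p = 8.15e-05). AT1G43910, annotated as a nucleoside triphosphate hydrolase, is overlapped on the other strand by AT1G43900. It had 14.3 and 14.6 CPM at 6 h, 42.1 and 36.7 CPM at 24 h and 51.9 and 53.1 at 72 h. AT1G43910 rose by 1.41 ± 0.10 from 6 to 24 h and by 0.29 ± 0.10 from 24 to 72 h (edgeR adjusted p = 3.83e-10 and 0.0166).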

How the data were processed

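The deposited files hold whole-number counts per gene, 1 library per file, without normalization. Libraries were stranded mRNA libraries read single-end, per the labels' protocols. TopHat2 2.1.1, HTSeq 0.6.0, edgeR and the TAIR10 build are named in the submitters' processing notes, without roles or settings. Membership used CPM by library total and 1 CPM added. The tests ran in edgeR 4.0.16 under R 4.3.3 (filterByExpr with a minimum count of 10, 21449 genes kept, TMM factors of 0.924 to 1.09, 1 mean per group over all 26 libraries, 13 residual degrees of freedom). The quasi-likelihood test was adjusted by Benjamini-Hochberg over all genes tested, at 0.05, and was tested on simulated data. SE is the log2 fold change divided by the square root of F. Symbols, 32835 matched IDs, gene positions and promoter windows came from RefSeq TAIR10.1.

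The members, the 9 gene lists and the role groups were chosen with earlier results of these data known. Named genes are members on the lists, the 10 highest in high light, the 10 with the largest smallest L, those nearest the thresholds, the 5 largest called rises and falls in each high light interval with at least 5 CPM, and up to 6 a role group. Alternatives were RLE and upper-quartile scaling, no filter, DESeq2 1.42.0, a replicate block, only the 4 libraries compared, other pseudocounts and thresholds, and each library left out.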

Additional observations from a re-analysis of the deposited data

Results flagged for a closer look

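In 4 members the change over one interval passed edgeR's test in opposite directions in the 2 lights, and every library moved accordingly. The differences themselves were not tested. The values are the log2 change in high light minus that in growth light.

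From 0.5 to 6 h the difference was 2.69 for ELIP2, which rose by 1.96 ± 0.15 in high light and fell by 0.73 ± 0.19 in growth light. It was 0.71 for SPS1, which rose by 0.19 ± 0.07 in high light and fell by 0.52 ± 0.08 in growth light. It was -1.12 for P5CS1, which fell by 0.52 ± 0.16 in high light and rose by 0.60 ± 0.17 in growth light. From 6 to 24 h it was -1.48 for FIB, which fell by 1.05 ± 0.12 in high light and rose by 0.43 ± 0.13 in growth light.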

How the results depend on the processing

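No member reversed its direction under any alternative where the main or the alternative run called the change. Signs of changes called in neither run were not compared. Over members, intervals and alternatives, 236 results lost their call, 148 gained one and 14185 stayed the same. No high light count moved by more than 1.5 times. From 0.5 to 6 h of growth light 8 members rose and 5 fell, which became 13 and 9 with no filter, and 4 and 3 with only the 4 libraries compared, where 64 members were tested. The rule gave 94 genes with 0.5 CPM added, of which 69 were among the 76, and 27 with 5 CPM added, of which 24 were. With 0.5 CPM, 25 genes entered and 7 members left. It gave 123 genes with L of at least 0.8 and 19 with L of at least 1.5, in place of 76.

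With each library left out in turn the rule gave 70 to 81 genes, and 46 of the 76 stayed in all 26 lists. In high light 34 to 37 members rose and 15 to 23 fell from 0.5 to 6 h, 37 to 46 rose and 10 to 15 fell from 6 to 24 h, and 4 to 5 rose and 43 to 54 fell from 24 to 72 h. In growth light the ranges were 4 to 10 and 1 to 8, 5 to 16 and 4 to 5, and 1 to 6 and 5 to 13. The libraries that moved a growth light count by over 1.5 times were both replicates at 0.5, 6, 24 and 72 h.

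Samples with the same replicate number did not deviate together, with correlations of -0.144 to 0.162 over 78 pairs of groups. With the replicate block 36 members rose and 21 fell, 45 rose and 14 fell, and 5 rose and 51 fell over the high light intervals. Depth limits genes such as DIP2 and AT4G28140 in growth light, where the smallest library has 16132345 counts.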
